A study of Mus musculus with 12 samples.

Results

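This account covers 39 genes of fatty acid uptake and beta-oxidation in mouse hearts, chosen by name and sorted into 6 steps, from uptake at the cell surface to oxidation in mitochondria and peroxisomes. Of the probe sets annotated with a gene and no other, the one with the highest mean over the 12 arrays stood for it. For 37 of the 39 genes such a probe set was found, and all 37 passed the filter on low values, out of 45101 probe sets on the array and 24176 past the filter (11807 genes). Acsl1 and Cpt1b had no such probe set and were not analysed here. The probe sets of Acsl3, Acad11, Acadsb, Hadh, Acaa2, Acaa1a and Hsd17b4 may also match related transcripts, so their values are less certain.

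RNA came from whole, excised hearts of CD1 mice, an outbred stock, in a study of inhibiting MCU in the heart. DN-MCU mice carried a dominant-negative construct of MCU, which forms the pore of the mitochondrial calcium uniporter, and WT mice were their littermates without the construct. The 4 groups were DN-MCU adults and WT adults, both male and 42 days old, and DN-MCU neonates and WT neonates, both 1 day old with the sex not given, each with 3 hearts hybridized to Affymetrix arrays. The promoter that drives the construct and the number of founder lines are not given in the sources used here.

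As background, long-chain fatty acids enter cardiomyocytes with the help of Cd36, Fatp transporters and binding proteins, are activated to acyl-CoA by Acsl enzymes, and cross into the mitochondrion as carnitine esters made by Cpt1 and turned back by Cpt2. In the matrix they are shortened by a repeated cycle of dehydrogenation, hydration, a second dehydrogenation and thiolysis, and the electrons pass through the electron transfer flavoprotein and its dehydrogenase to the respiratory chain. Very long chains and dicarboxylic acids are first shortened in peroxisomes, and the heart is known to shift from glucose and lactate toward fatty acids as its main fuel after birth.

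All values are log2 signals, so a difference of 1 is a doubling or a halving. The label of the tissue held by the level of the 9 cardiomyocyte markers. Their mean was 14.71 to 15.16 per array, where the highest value of any probe set was 15.93. All 9 were above the filter level (3.35) on every array of all 4 groups. So were all 9 endothelial and all 6 fibroblast markers, so passing that level does not itself tell the tissue. One Mcu probe set read 8.85, 9.64 and 10.41 in DN-MCU adults against 4.55, 2.45 and 3.06 in WT adults, and 8.73, 8.44 and 9.28 in DN-MCU neonates against 2.90, 3.31 and 3.24 in WT neonates, so that by this probe set the genotype labels held on all 12 arrays. The other Mcu probe set averaged 7.69 in DN-MCU adults against 7.66 in WT adults and 7.98 in DN-MCU neonates against 7.95 in WT neonates, with no difference past the spread. The 2 ages separated on the first principal component (71.7% of the variance). DN-MCU adult 3 stood apart on the second (13.0%), at 121.4, and WT adult 1 was next at 24.42. The median SD of the 37 genes was 0.335 in DN-MCU adults, 0.140 in WT adults, 0.130 in DN-MCU neonates and 0.0985 in WT neonates. The main results on DN-MCU against WT adults are therefore given with and without DN-MCU adult 3. Other adult values, and the counts between the ages in DN-MCU hearts, include that array unless stated.

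In adult hearts, 4 genes of fatty acid oxidation were called lower in DN-MCU than in WT. Hadha (subunit alpha of the mitochondrial trifunctional protein), Eci1 (an isomerase for unsaturated chains), Etfdh (the dehydrogenase that hands electrons from the flavoprotein to ubiquinone) and Ehhadh (the bifunctional enzyme of peroxisomes) fell, by 0.72, 0.65, 0.78 and 1.10 on the log2 scale. These calls rest on a spread shared by all 12 arrays: with a block for the replicate number of neonates (the neonatal replicate block) Hadha alone kept its call, and with the adult arrays fitted alone none did. None of the 37 genes rose, and 20 of the 37 had an unadjusted p under 0.05, against 18.2% of all probe sets. Thus 4 of 37 passed, all downward, where 4.77% of all probe sets passed, 2.82% upward and 1.95% downward (1.69% downward with 1 probe set per gene; limma, Benjamini-Hochberg adjustment over all probe sets). In bulk tissue, fewer cells of a type and less RNA per cell cannot be told apart.

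Most of the remaining genes had values below 0 without passing. The difference was below 0 for 31 of the 37 genes, against 53% of all probe sets and 49.7% of genes at 1 probe set each, and its median was -0.48, against -0.02 over all probe sets. All 3 DN-MCU arrays lay below all 3 WT arrays for 16 of the 37 genes, against 8.46% of all probe sets and 8.14% of genes, and above them for Acsl5 only, against 8.7%. By step, the median difference was -0.31 for uptake, 0.22 for activation, -0.52 for the carnitine shuttle and its control, -0.52 for mitochondrial oxidation, -0.57 for electron transfer and -0.19 for the peroxisomal genes. Without DN-MCU adult 3 these medians were -0.17, 0.60, -0.75, -0.49, -0.27 and -0.37 in the same order of steps. The sign of 3 genes turned with that array left out: Acsl4 (-0.33 with it, 0.35 without), Acadsb (-0.62 and 0.03) and Acaa1a (0.12 and -0.38).

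**Figure D1:**
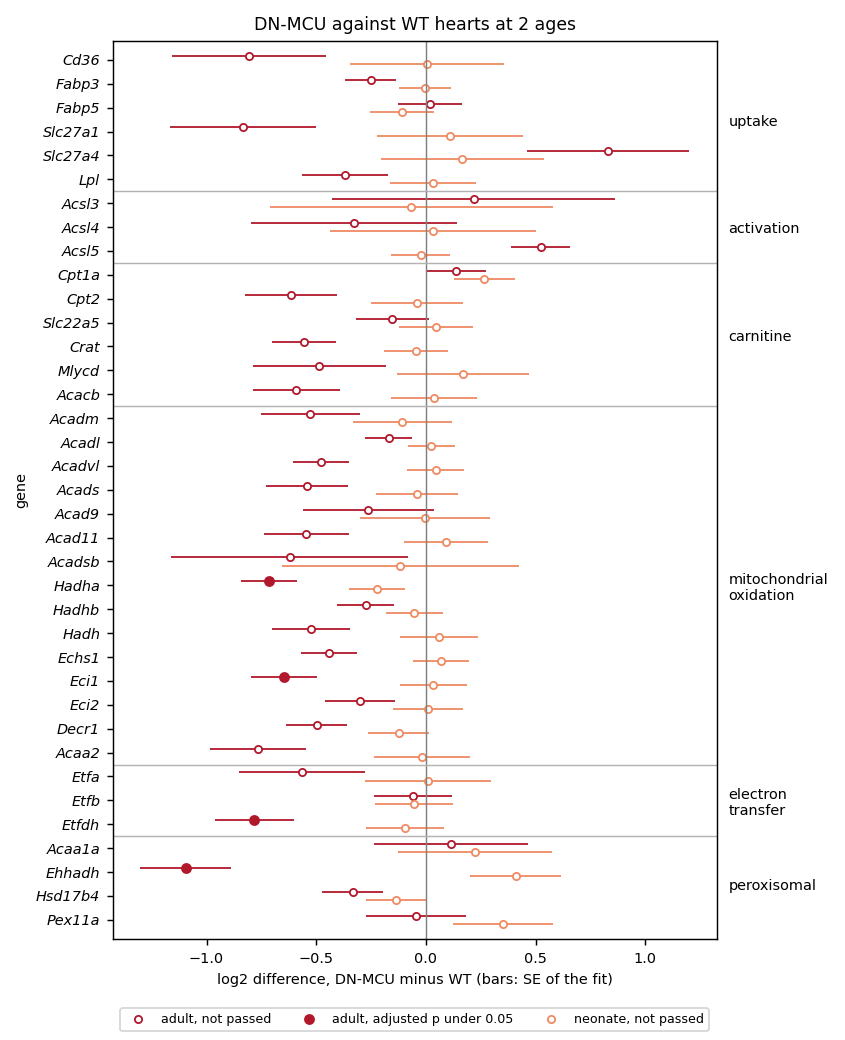
Log2 difference between DN-MCU and WT hearts (horizontal axis) for each of the 37 genes (vertical axis, in order of steps), in adults (dark red) and neonates (orange). Circles are the differences of group means of 3 arrays each, bars are the SE of the fit, and filled circles passed at an adjusted p under 0.05. In adults 31 of 37 circles lie below 0, and in neonates 17 of 37 do.

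**Figure D2:**
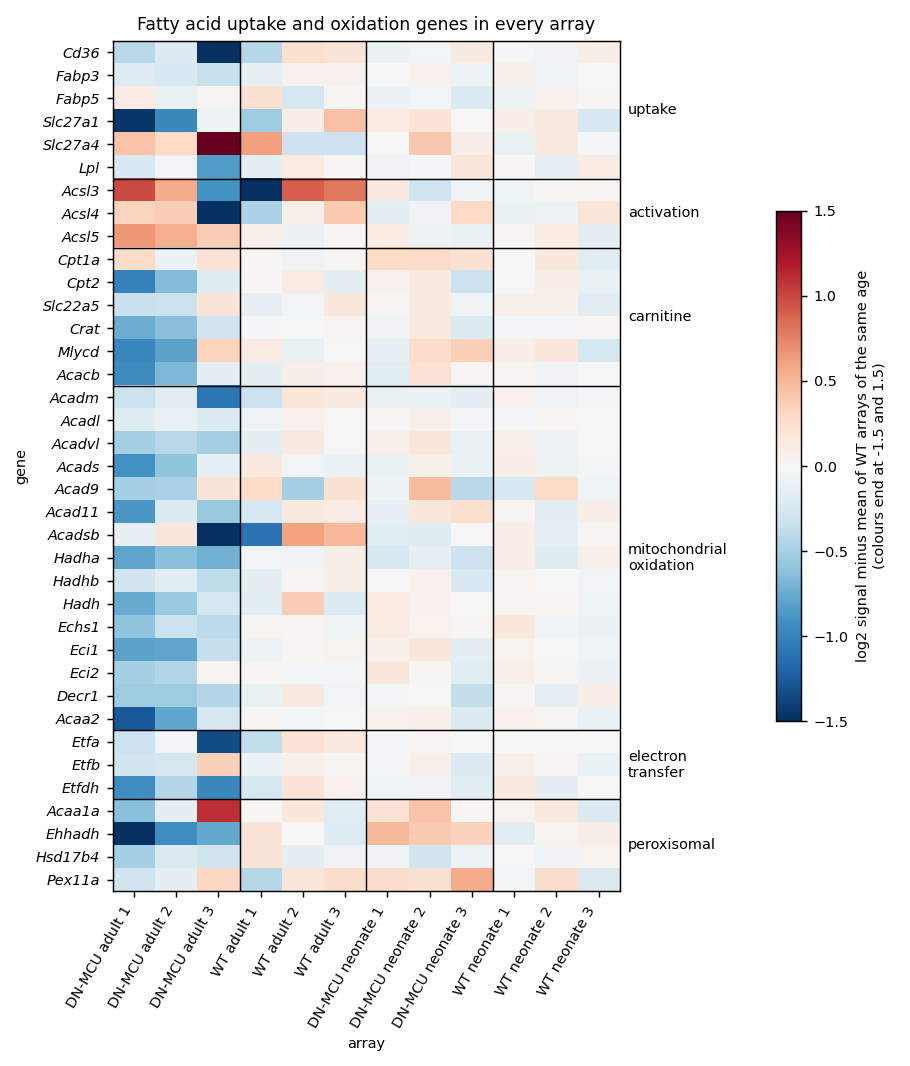
Log2 signal of each gene on each of the 12 arrays minus the mean of the WT arrays of the same age, shown as colour (blue lower, red higher, ending at -1.5 and 1.5). Columns are arrays, grouped as DN-MCU adult, WT adult, DN-MCU neonate and WT neonate, and rows are genes in order of steps. DN-MCU adult columns are mostly blue in mitochondrial oxidation, and DN-MCU adult 3 differs from DN-MCU adult 1 and 2 in several rows.

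Among uptake genes, none of 6 passed in adults. Slc27a1, a fatty acid transport protein of the plasma membrane, had the smallest p of the step, with 7.07, 7.56 and 8.45 in DN-MCU adults against 7.99, 8.62 and 8.97 in WT adults. The third DN-MCU array lay inside the WT range and the others below it, and the difference was -0.83 (SE 0.33, adjusted p = 0.211 by limma). Without DN-MCU adult 3 the difference was -1.21 (adjusted p = 0.0213). On the dimmer other probe set of Slc27a1, with all arrays, it was -0.39 (adjusted p = 0.549, limma).

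Cd36, the main fatty acid translocase of the heart, read 13.54, 13.75 and 12.17 in DN-MCU adults against 13.53, 14.20 and 14.15 in WT adults. The low mean of DN-MCU adults thus rested in part on DN-MCU adult 3. The difference was -0.81 (SE 0.35, adjusted p = 0.256 by limma) with it and -0.32 without it. WT adult 1 was the lowest WT array. Without both of these arrays, a choice made after seeing the data, it was -0.53 (adjusted p = 0.0265, limma). In that fit 13% of all probe sets passed. Slc27a4, another transport protein, ran the other way, at 7.18, 7.04 and 8.51 in DN-MCU adults against 7.36, 6.44 and 6.44 in WT adults. Here too DN-MCU adult 3 was the extreme array, and the groups overlapped. The difference was 0.83 with DN-MCU adult 3, 0.36 without it, and 0.67 without both arrays (adjusted p = 0.268, 0.461 and 0.0238, limma). Of the binding proteins, Fabp3, the heart form, differed by -0.25 with no overlap between the groups, and Fabp5, the epidermal form, by 0.02, neither past the test. Lpl, the lipase that frees fatty acids from circulating triglycerides, differed by -0.37 with overlapping groups (adjusted p = 0.362, limma). Without DN-MCU adult 3 this was -0.14. On its other probe set, with all arrays, Lpl differed by -1.02 (adjusted p = 0.0896, limma).

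Of the 3 activation genes measured, Acsl5, an acyl-CoA synthetase, was the only one of the 37 whose DN-MCU adult arrays all lay above the WT arrays. It read 9.87, 9.76 and 9.59 in DN-MCU adults against 9.29, 9.12 and 9.23 in WT adults, a difference of 0.52 (SE 0.13) that missed the threshold (adjusted p = 0.0519, limma). Without DN-MCU adult 3 it passed, at 0.60 (adjusted p = 0.0178). Acsl3 and Acsl4, synthetases that act on unsaturated chains among others, spread more within groups than between them: their SDs were 0.99 and 1.18 in DN-MCU adults and 1.47 and 0.44 in WT adults.

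For the carnitine shuttle, Crat, the mitochondrial carnitine acetyltransferase, came closest to passing among the chosen probe sets. It read 10.67, 10.79 and 11.11 in DN-MCU adults against 11.38, 11.40 and 11.46 in WT adults. All DN-MCU arrays lay below all WT arrays, which were close together, and the difference was -0.56 (SE 0.14, adjusted p = 0.0571, limma). The dimmer other probe sets of Crat differed by only -0.15 and -0.32 (adjusted p = 0.773 and 0.512, limma). Cpt2, the inner-membrane palmitoyltransferase, read 11.29, 11.65 and 12.12 in DN-MCU adults against 12.32, 12.43 and 12.16 in WT adults, again with no overlap. Its difference was -0.62 (SE 0.21, adjusted p = 0.138), and that on its dim other probe set (mean 3.92) was -0.07.

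The other shuttle genes were more mixed. Cpt1a, the outer-membrane isoform typical of liver and of the newborn heart, differed by 0.14 and Slc22a5, the carnitine transporter of the cell surface, by -0.15, both with overlap. Acacb, which makes the malonyl-CoA that inhibits Cpt1, and Mlycd, which breaks it down, differed by -0.59 and -0.49 (adjusted p = 0.134 and 0.458). Both were lowest on DN-MCU adult 1 (9.72 for Acacb, 7.75 for Mlycd) and highest among DN-MCU adults on DN-MCU adult 3 (10.53 and 9.07), and WT adults lay between 10.53 and 10.76 for Acacb and between 8.62 and 8.85 for Mlycd. Acaca, the carboxylase of fatty acid synthesis, differed by 0.44 (adjusted p = 0.659).

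In mitochondrial oxidation 2 of 15 genes passed. All 15 had a difference below 0 (14 without DN-MCU adult 3, where Acadsb was at 0.03), and for 10 of them the 3 DN-MCU adult arrays lay below the 3 WT arrays. Hadha had the smallest p of the 37 genes. It read 11.85, 12.01 and 11.92 in DN-MCU adults against 12.60, 12.59 and 12.73 in WT adults. The groups did not overlap, the spread within each was small (SD 0.08 in both), and DN-MCU hearts were 1.64-fold lower (log2 difference -0.72, SE 0.13, adjusted p = 0.00952, limma). Hadhb, the beta subunit of the same protein, read 14.42, 14.54 and 14.32 in DN-MCU adults against 14.57, 14.75 and 14.79 in WT adults. It too had no overlap, but its difference of -0.28 (SE 0.13) did not pass (adjusted p = 0.298), and the difference between the subunits' changes was not tested.

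Eci1 read 12.40, 12.41 and 12.85 in DN-MCU adults against 13.12, 13.21 and 13.25 in WT adults. DN-MCU adult 3 was the nearest to WT without reaching it, and DN-MCU hearts were 1.57-fold lower (log2 difference -0.65, SE 0.15, adjusted p = 0.0365, limma; 0.0853 under the neonatal replicate block). Acaa2, the thiolase that ends the cycle, read 12.16, 12.65 and 13.17 in DN-MCU adults against 13.44, 13.41 and 13.42 in WT adults. The groups did not overlap, but the DN-MCU arrays spread widely (SD 0.51), and the difference of -0.77 did not pass (SE 0.22, adjusted p = 0.0819). Its other 2 probe sets did pass, at -0.77 (adjusted p = 0.0373) and -1.03 (adjusted p = 0.0284). Likewise Decr1, which reduces dienoyl-CoA from polyunsaturated chains, differed by -0.50 on the chosen probe set (adjusted p = 0.0747) and by -0.92 on the other (adjusted p = 0.00366).

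The dehydrogenases of the first step of the cycle differ in the chain length they take. Acadvl, for very long chains, read 13.04, 13.14 and 13.04 in DN-MCU adults against 13.41, 13.69 and 13.56 in WT adults, without overlap. Its difference was -0.48 (SE 0.13, adjusted p = 0.0663, limma). Acadl, for long chains, differed by only -0.17 and Acads, for short chains, by -0.54, also without overlap and without passing. Acadm, for medium chains, differed by -0.53 with overlap, and by -0.25 without DN-MCU adult 3. That array was the lowest at 13.47, below 14.23 and 14.39 on the other DN-MCU arrays and 14.23, 14.74 and 14.70 in WT adults. Acad9, Acad11 and Acadsb differed by -0.26, -0.55 and -0.62 with overlapping groups. Echs1, the hydratase of short chains, and Hadh, the dehydrogenase of the third step, differed by -0.44 and -0.52 without overlap (adjusted p = 0.0864 and 0.137), and Eci2, an isomerase also found in peroxisomes, by -0.30 with overlap.

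Of the 3 electron transfer genes, Etfdh passed. It read 12.71, 13.21 and 12.68 in DN-MCU adults against 13.38, 13.85 and 13.71 in WT adults. No arrays overlapped, and DN-MCU hearts were 1.72-fold lower (log2 difference -0.78, SE 0.18, adjusted p = 0.0330, limma; 0.0894 under the neonatal replicate block). The other Etfdh probe set was dim (mean 4.13) and differed by -0.31 without passing (adjusted p = 0.356, limma). Etfa and Etfb, the subunits of the flavoprotein, differed by -0.57 and -0.06 with overlap. Etfa was lowest on DN-MCU adult 3 (12.67, against 13.64 to 14.22 in WT adults), and without that array it differed by -0.18.

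Among the 4 peroxisomal genes, Ehhadh had the largest adult difference of all 37. It read 5.85, 6.51 and 6.67 in DN-MCU adults against 7.64, 7.44 and 7.25 in WT adults. The groups did not overlap, and DN-MCU hearts were 2.14-fold lower (log2 difference -1.10, SE 0.21, adjusted p = 0.0134, limma; 0.0503 under the neonatal replicate block). Hsd17b4, the other bifunctional enzyme of peroxisomes, differed by -0.33 without overlap (adjusted p = 0.232), and by -0.18 on its other probe set (adjusted p = 0.550, limma). Acaa1a, a peroxisomal thiolase, and Pex11a, which promotes peroxisome division, differed by 0.12 and -0.04 with overlap.

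**Figure D3:**
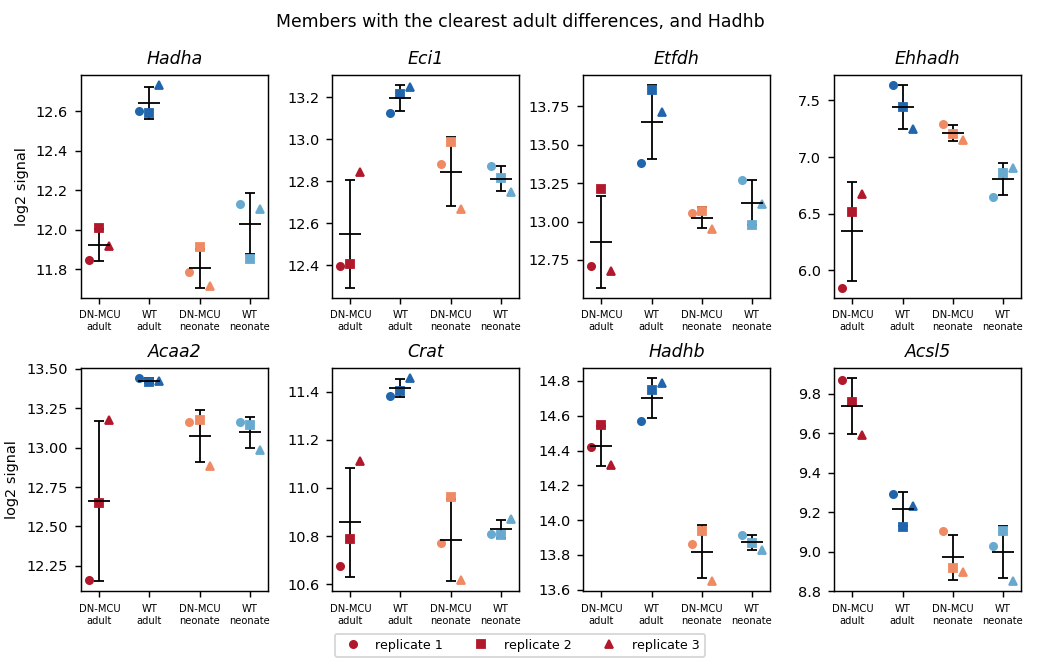
Log2 signal (vertical axes, each with its own range) of 8 genes in DN-MCU adults, WT adults, DN-MCU neonates and WT neonates. Symbols are single arrays by replicate number, and lines with bars are the mean and SD of 3 arrays. Hadha, Eci1, Etfdh and Ehhadh passed in adults, with no DN-MCU adult array inside the WT adult range, and in neonates the groups lie closer together.

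The adult calls depended on how the spread was estimated and on the arrays used. Fitted on the adult arrays alone, 0 of the 37 genes passed, with adjusted p = 0.150 for Hadha, 0.293 for Eci1, 0.296 for Etfdh and 0.211 for Ehhadh (limma), where 2500 of the 24176 probe sets had an unadjusted p under 0.05 and 112 (0.463%) passed. Under the neonatal replicate block, only Hadha passed (adjusted p = 0.0390, with 2.63% of all probe sets called), and Eci1, Etfdh and Ehhadh had adjusted p = 0.0853, 0.0894 and 0.0503.

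Without DN-MCU adult 3, 15 of the 37 genes passed, where 9.16% of all probe sets did. Acsl5 was higher, and 14 genes were lower, against 4.72% of all probe sets: Slc27a1 in uptake, then Cpt2, Crat, Mlycd and Acacb, then Acads, Hadha, Hadh, Eci1, Eci2, Decr1 and Acaa2, and Etfdh and Ehhadh. The median difference was then -0.38, with 30 of 37 genes below 0. The 4 genes named above passed in both fits.

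The genes on which DN-MCU adult 3 stood apart were not all on one side. It was higher than both other DN-MCU adults for 18 of the 37 genes, lower than both for 13 and between them for 6. The gap to the mean of the other DN-MCU adults was -2.04 for Acsl4, -1.95 for Acadsb, -1.67 for Acsl3, -1.47 for Cd36 and -1.16 for Etfa, and it was 1.48 for Acaa1a, 1.40 for Slc27a4, 1.23 for Mlycd and 1.13 for Slc27a1. For Hadha it was -0.01.

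Markers of fat cells also varied between the adult hearts. Of 11 adipocyte markers, 8 had a probe set, and their mean was 8.24, 9.26 and 6.42 in DN-MCU adults against 8.87, 7.75 and 8.09 in WT adults, with none past the test. DN-MCU adult 3 was the lowest of the adults and DN-MCU adult 2 the highest. Ucp1, the uncoupling protein of brown fat, read 9.86, 10.72 and 2.36 in DN-MCU adults against 9.89, 7.11 and 7.77 in WT adults, and Adipoq, the fat cell hormone adiponectin, 10.52, 11.57 and 8.64 against 11.39, 9.96 and 10.55. On DN-MCU adult 3 Ucp1 was thus below the filter level. Cidea, a lipid droplet protein of brown fat, did not follow this pattern, at 11.49, 11.51 and 11.13 in DN-MCU adults against 11.26, 10.23 and 10.34 in WT adults (0.77, adjusted p = 0.126, limma), and DN-MCU adult 3 was not the lowest adult for it. The 9 cardiomyocyte markers averaged 14.94, 15.02 and 14.95 in DN-MCU adults against 15.04, 15.16 and 15.13 in WT adults. Erythroid markers averaged 4.41, 5.15 and 5.68 against 5.43, 4.90 and 4.83, and fibroblast markers 11.56, 10.94 and 10.77 against 11.49, 10.98 and 11.13. WT adult 1 departed from the other WT adults in the direction of DN-MCU adult 3 for 27 of the 37 genes. WT adult 1 had the highest adipocyte mean of the WT adults. It stood out more by the 6 epicardial or mesothelial markers. Their mean was 7.04 on WT adult 1, against 4.90 and 5.36 on the other WT adults and 5.14 to 5.48 in DN-MCU adults. The part of these markers in the differences above was not tested.

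**Figure D4:**
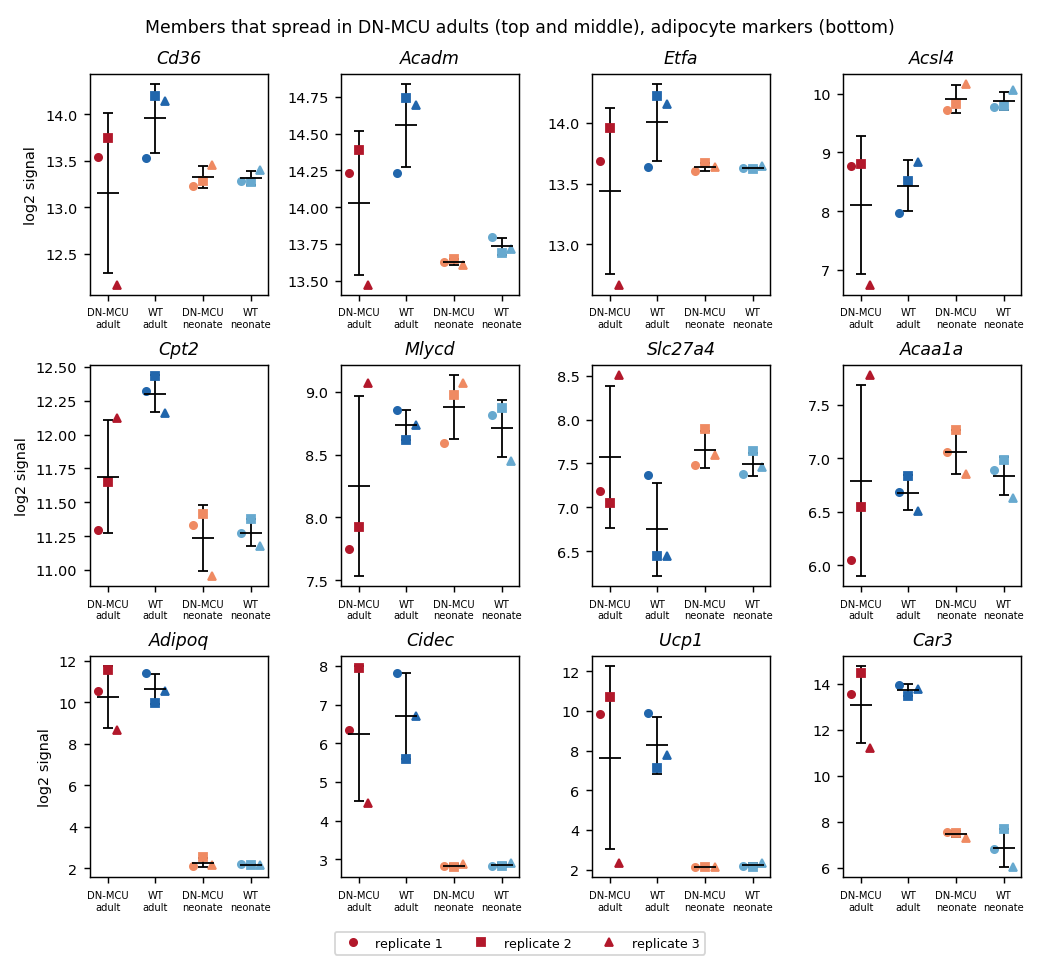
Log2 signal (vertical axes, each with its own range) of 8 genes that spread among DN-MCU adults and of the adipocyte markers Adipoq, Cidec, Ucp1 and Car3, in DN-MCU adults, WT adults, DN-MCU neonates and WT neonates. Symbols are single arrays by replicate number, and lines with bars are the mean and SD of 3 arrays. DN-MCU adult 3 (triangle) is the lowest adult for Cd36, Acadm, Etfa and Acsl4 and for the 4 markers plotted, and the highest adult for Mlycd, Slc27a4 and Acaa1a.

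Since many of these genes are known targets of nuclear receptors, the windows from 250 bases before to 50 after each gene's start were searched on both strands. RefSeq windows (GRCm38.p6) were at hand for 31 of the 39 genes. The core hexamer AGGTCA of nuclear receptors was found in 6 of 31 (19.4%), namely Acacb, Acadm, Acadvl, Cd36, Cpt1a and Echs1, against 18.1% of 27025 genes. The direct repeat of that hexamer with 1 base between, to which PPAR and RXR bind, was found in 0 of 31, against 0.0481% of genes, and the site TCAAGGTCA of the estrogen-related receptors, which contains the hexamer, in 0 of 31, against 0.466%. The site TGATGNAA of ATF4 was found in Echs1 and Fabp3 (6.45%), against 4.51% of genes. None of these motifs was found in the windows of Hadha, Eci1, Etfdh or Ehhadh, which says only that these letters are not in them.

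The 250 bases before the start are shown for the called gene with the smallest p, for the one with the largest difference, and for Echs1, the one gene with a match to both motifs. In Echs1 the capitals mark the ATF4 letters (-164 to -157 from the start) and the hexamer (-83 to -78), and the other 2 sequences hold no match. All 3 lie on the minus strand and are written 5′ to 3′ along it: Hadha at chr5:30154981-30155230, Ehhadh at chr16:21787835-21788084 and Echs1 at chr7:140116422-140116671.
Hadha: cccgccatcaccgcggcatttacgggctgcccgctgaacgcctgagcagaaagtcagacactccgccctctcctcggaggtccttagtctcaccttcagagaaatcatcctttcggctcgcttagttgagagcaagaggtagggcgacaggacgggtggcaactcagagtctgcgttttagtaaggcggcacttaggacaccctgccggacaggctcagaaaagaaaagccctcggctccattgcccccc
Ehhadh: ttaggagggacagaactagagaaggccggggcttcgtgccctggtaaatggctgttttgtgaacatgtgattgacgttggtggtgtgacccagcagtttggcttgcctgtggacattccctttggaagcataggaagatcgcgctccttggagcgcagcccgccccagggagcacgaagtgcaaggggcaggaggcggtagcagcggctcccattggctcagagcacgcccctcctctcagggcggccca
Echs1: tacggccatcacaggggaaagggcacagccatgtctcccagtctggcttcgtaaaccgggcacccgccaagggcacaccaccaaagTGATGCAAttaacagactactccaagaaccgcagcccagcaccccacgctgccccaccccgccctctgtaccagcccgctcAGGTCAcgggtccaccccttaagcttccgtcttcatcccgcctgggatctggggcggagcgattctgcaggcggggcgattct

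Hadha and Hadhb, which encode the subunits of one protein, lie head to head on chromosome 5, Hadha on the minus strand with its first base at 30154980 and Hadhb on the plus strand with its first base at 30155253. Their starts are 272 bases apart and their windows share 228 bases, so that the stretch printed for Hadha is also most of the upstream stretch of Hadhb. The adult differences of these neighbours were -0.72 for Hadha and -0.28 for Hadhb.

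In neonatal hearts 0 of the 37 genes passed between DN-MCU and WT, where 4 of 24176 probe sets (0.0165%) did, and none of the 37 had an unadjusted p under 0.05, where 578 probe sets had. The median difference was 0.01, against 0.01 over all probe sets, and 17 of the 37 differences were below 0, against 46.8% of probe sets. All DN-MCU arrays lay below all WT arrays for 1 gene (Acadm), against 5.13% of probe sets, and above them for 2 (Cpt1a and Ehhadh), against 7.51%. The smallest SE among the 37 genes was 0.11 (Acadl), and changes smaller than the spread of 3 hearts a group could not be detected. Each SE rests on a spread shared by both ages. The median SD of the 37 genes was 0.335 in DN-MCU adults, against 0.130 in DN-MCU neonates and 0.0985 in WT neonates. The wider spread of DN-MCU adults thus entered the neonatal test. With neonatal arrays fitted alone, 1758 of 24176 probe sets had an unadjusted p under 0.05, and 1 was called higher. With array weights, 64 probe sets were called higher and 31 lower.

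The gene with the smallest neonatal p was Ehhadh, the bifunctional enzyme that fell in adults. It read 7.29, 7.20 and 7.15 in DN-MCU neonates against 6.64, 6.86 and 6.91 in WT neonates. All DN-MCU arrays lay above all WT arrays, opposite to the adults, but the difference of 0.41 did not pass (SE 0.21, adjusted p = 1.00 by limma). Hadha read 11.79, 11.91 and 11.72 in DN-MCU neonates against 12.13, 11.85 and 12.11 in WT neonates, with overlap, and differed by -0.23 (SE 0.13). Cpt1a read 11.00, 11.01 and 10.95 in DN-MCU neonates against 10.73, 10.88 and 10.56 in WT neonates, without overlap, and differed by 0.27 (SE 0.14).

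In the other steps the neonatal differences were smaller. Fabp5 had the smallest p in uptake with -0.11, Acsl5 in activation with -0.02, and Etfdh in electron transfer with -0.10, all with overlapping groups. Eci1, which fell in adults, differed by 0.03. The mean of the 6 epicardial or mesothelial markers was 6.83 to 7.19 in DN-MCU neonates against 7.60 to 8.31 in WT neonates. None of these markers passed between the genotypes, and their part in the neonatal differences was not tested.

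Whether DN-MCU acted differently at the 2 ages was tested as the adult difference minus the neonatal difference. Ehhadh passed, at -1.50 (SE 0.29, adjusted p = 0.0477, limma), being lower in DN-MCU adults and, short of the threshold, higher in DN-MCU neonates. It was 1 of 37 genes, where 0.786% of all probe sets passed, 0.199% downward. The other 3 genes called in adults did not pass here: the difference of effects was -0.49 for Hadha (adjusted p = 0.381), -0.68 for Eci1 (0.277) and -0.69 for Etfdh (0.387). It was below 0 for 33 of the 37 genes, against 53.6% of probe sets, and for all 15 of mitochondrial oxidation, with a median of -0.42 against -0.03 over all probe sets. Without DN-MCU adult 3 Acadsb was at 0.14 here. The call on Ehhadh was lost in 15 of 23 alternatives, with adjusted p = 0.164 under the neonatal replicate block and 0.142 after quantile normalization (limma). It held without DN-MCU adult 3 (-1.67, adjusted p = 0.0128). There 3 of the 37 genes passed, and 327 of 24176 probe sets were called higher and 309 lower.

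More of the genes passed between the ages than between the genotypes. In DN-MCU hearts 11 of the 37 genes were higher in adults than in neonates and 8 lower, where 46% of all probe sets passed, 20.3% upward and 25.7% downward. In WT hearts 18 were higher in adults and 4 lower, where 45.1% of all probe sets passed, 20.6% upward and 24.4% downward. The median difference between adults and neonates was 0.02 in DN-MCU hearts and 0.59 in WT hearts, against -0.07 over all probe sets in both. Subtracting each array's median moved the median of all probe sets by -0.16 in DN-MCU and -0.14 in WT hearts, and gave 9 higher and 10 lower in DN-MCU hearts and 16 and 5 in WT hearts, with no called gene changing sign. Of the 24189 probe sets then tested, 3990 were higher and 7743 lower in DN-MCU hearts, and 4258 and 7143 in WT hearts. After quantile normalization 11 genes were higher and 6 lower in DN-MCU hearts, where 5246 and 5415 of 24187 probe sets were.

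The adult gains in WT hearts were spread over all steps except activation. Acad11, an acyl-CoA dehydrogenase of long chains, read 11.94, 12.33 and 12.32 in WT adults against 8.92, 8.75 and 8.99 in WT neonates. It was 9.94-fold higher in adults, the largest rise of the 37 genes, with no overlap (log2 difference 3.31, SE 0.19, adjusted p = 4.87e-07, limma). Slc27a1 rose by 1.62, Pex11a by 1.55, Decr1 by 1.42, Acacb by 1.37, Echs1 by 1.29, Cpt2 by 1.03, Lpl by 1.00 and Acadvl by 0.98. In mitochondrial oxidation 8 of 15 genes were higher in adults and none lower.

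Falls were found among the synthetases, in Cpt1a and in Fabp5. Acsl3 was the gene with the largest difference between the ages, at 3.23, 5.83 and 5.72 in WT adults against 10.18, 10.28 and 10.30 in WT neonates. It was 40.0-fold lower in adults (log2 difference -5.32, SE 0.64, adjusted p = 7.98e-05, limma), with WT adult 1 just below the filter level. Without that array it was 22.2-fold lower (-4.47). Its probe set may match related transcripts, and another one differed by -4.30. Acsl4 fell by 1.44 (adjusted p = 0.0286), and its dimmer probe sets differed by -0.40 and -0.94 (adjusted p = 0.629 and 0.00158, limma). Acsl5 differed by 0.22 and did not pass. Cpt1a read 9.10, 9.03 and 9.13 in WT adults against 10.73, 10.88 and 10.56 in WT neonates, a fall by 1.64 with no overlap (adjusted p = 5.93e-06). Fabp5 fell by 1.98 (adjusted p = 2.31e-06), while Fabp3 differed by 0.27 and did not pass.

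The same 4 genes were lower in adults in both genotypes (4 of the 8 in DN-MCU and 4 of the 4 in WT), and 10 genes were higher in both (10 of 11 in DN-MCU and 10 of 18 in WT): Lpl, Slc22a5, Acacb, Acadvl, Acad11, Hadhb, Echs1, Decr1, Etfb and Pex11a. Of all probe sets, 46% passed between the ages in DN-MCU hearts and 45.1% in WT hearts. The share passing in both genotypes was not counted, so whether this overlap is particular to these genes was not tested. Slc27a1, Cpt2, Crat, Acadm, Acads, Hadha and Etfdh were called higher in adults in WT hearts and not called in DN-MCU hearts. For Hadha the adult difference was 0.12 in DN-MCU hearts and 0.61 in WT hearts, for Crat 0.07 and 0.59, and for Etfdh -0.16 and 0.53. The dimmer probe sets of Crat differed by 0.39 and -0.28 in WT hearts (adjusted p = 0.159 and 0.330, limma). Cd36 was not called in WT hearts (0.64), and its dimmer probe sets differed by 0.38 and 1.85 (adjusted p = 0.375 and 0.00180, limma). Ehhadh was lower in adults than in neonates in DN-MCU hearts (-0.87, adjusted p = 0.00616) and higher in WT hearts (0.64, adjusted p = 0.0278). Acad9, Hadh and Eci2 were called lower in adults in DN-MCU hearts (-1.04, -0.58 and -0.43). In WT hearts, where they were not called, the differences were -0.79, 0.00 and -0.12. The dimmer probe sets of Acad9 differed by -1.07 and -1.25 in WT hearts (adjusted p = 0.0107 and 0.0636, limma). The test of the difference between genotypes is the same as that of the difference of effects above, and of the genes in this paragraph Ehhadh alone passed it.

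**Figure D5:**
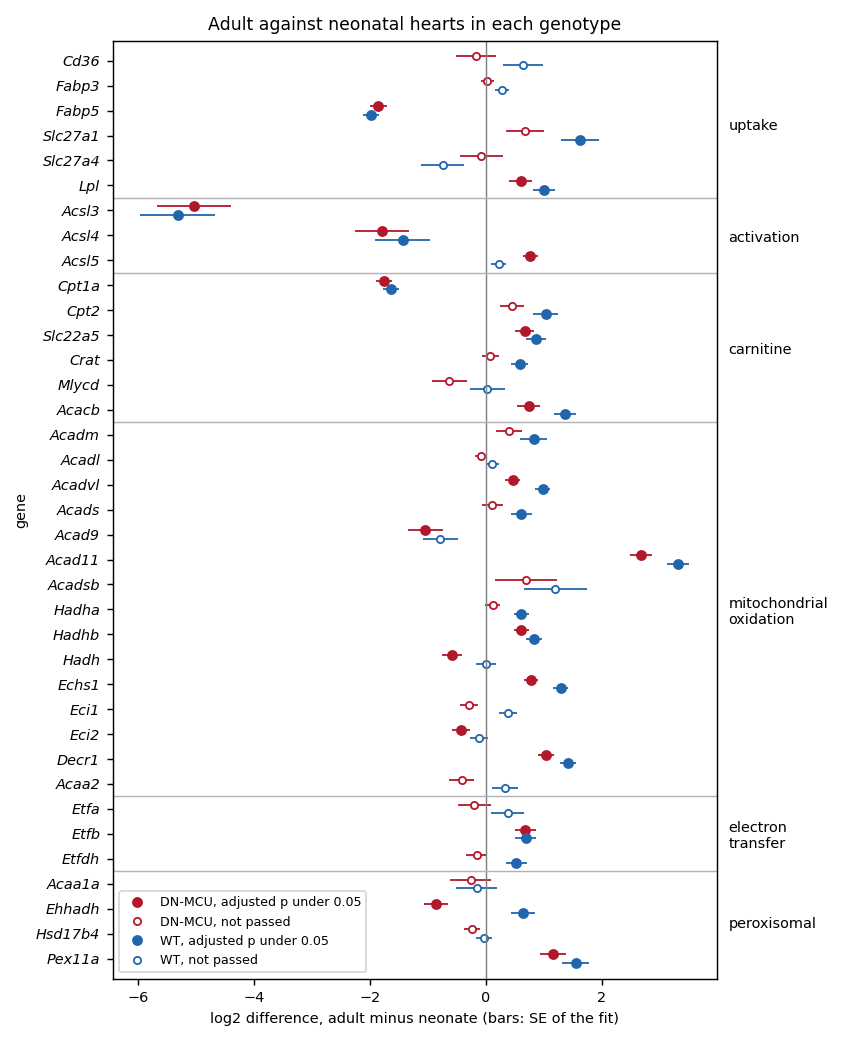
Log2 difference between adult and neonatal hearts (horizontal axis) for each of the 37 genes (vertical axis, in order of steps), in DN-MCU (red) and WT (blue). Circles are the differences of group means of 3 arrays each, bars are the SE of the fit, and filled circles passed at an adjusted p under 0.05. Acsl3 lies near -5 and Acad11 near 3 in both genotypes, and Ehhadh is filled on opposite sides of 0.

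Fat cell markers differed between the ages in the same direction as most of the called genes. Adipoq read 10.52, 11.57 and 8.64 in DN-MCU adults against 2.13, 2.54 and 2.16 in DN-MCU neonates, and 11.39, 9.96 and 10.55 in WT adults against 2.20, 2.17 and 2.16 in WT neonates. Neonatal values were thus below the filter level in both genotypes. The mean of the 8 adipocyte markers lay between 6.42 and 9.26 in DN-MCU adults against 4.09 to 4.26 in DN-MCU neonates, and between 7.75 and 8.87 in WT adults against 3.99 to 4.25 in WT neonates. Of the 6 of them past the filter, 6 were higher in adults in DN-MCU hearts and 5 in WT hearts. The 3′ minus 5′ signal of the Actb control probe sets, a sign of RNA quality, also differed with age, at 0.77 to 0.90 on adult arrays against 1.03 to 1.56 on neonatal arrays. That of the Gapdh control probe sets overlapped, at -0.57 to -0.38 on adult arrays and -0.53 to -0.18 on neonatal arrays. The part of the markers and of RNA quality in the differences between the ages was not tested.

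Beyond the 39 genes, a list of 40 other genes of fatty acid handling and 10 regulators of the pathway was read from the same fit, of which 34 and 10 were measured. In adults, 3 of 34 handling genes and 1 of 10 regulators were lower in DN-MCU hearts and none higher, against 1.95% of all probe sets lower. The medians were -0.33 and -0.29, against -0.02 over all probe sets. Dgat2, which makes triglycerides, read 9.77, 10.28 and 10.43 in DN-MCU adults against 11.00, 10.98 and 11.32 in WT adults, and Ivd, the isovaleryl-CoA dehydrogenase of leucine breakdown, 10.46, 10.95 and 11.32 against 11.87, 11.92 and 11.98. Neither overlapped, and they fell by 0.94 (adjusted p = 0.0124) and 1.02 (adjusted p = 0.0125, limma). Pccb, a subunit of propionyl-CoA carboxylase, fell by 0.58 (adjusted p = 0.0442).

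The regulator that passed was Lpin1, a phosphatidate phosphatase that also acts with Ppara and Ppargc1a in the nucleus. It read 8.78, 9.33 and 10.08 in DN-MCU adults against 10.83, 10.86 and 10.73 in WT adults. All DN-MCU arrays were lower, with a difference of -1.41 (SE 0.32, adjusted p = 0.0304, limma). Ppara, the fatty acid receptor that drives many genes of the pathway, read 8.92, 9.22 and 9.34 in DN-MCU adults against 9.78, 9.52 and 9.62 in WT adults. There was no overlap, but the difference of -0.48 did not pass (adjusted p = 0.0869). Ppargc1a, its coactivator, differed by -0.86 with overlap (adjusted p = 0.0962), Pparg, the receptor typical of fat cells, by 0.47 without overlap (adjusted p = 0.201), and Slc25a20, the carnitine carrier of the inner membrane, by -0.39 (adjusted p = 0.326).

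Fitted on the adult arrays alone, none of these 44 genes passed, and under the neonatal replicate block Dgat2 and Ivd did (adjusted p = 0.0470 and 0.0483). Without DN-MCU adult 3, 7 were lower and none higher, against 4.72% of all probe sets lower, with Ppara (-0.57, adjusted p = 0.0239), Plin5, a coat protein of lipid droplets (-0.59, adjusted p = 0.0347), and Gpihbp1, the capillary anchor of Lpl (-0.49, adjusted p = 0.0318), added to the 4. In neonates 0 of the 44 passed, and 0 had an unadjusted p under 0.05.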

How the data were processed

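From 500 ng of total RNA per heart, the authors deposited a single table of log2 signals on a common scale across arrays. That these are log2 values was read from their range. The submitters' processing notes name Partek; the methods of summarising and normalizing signals are not given in the sources used here, so the effect on dim probe sets is unknown. Probe sets were named from GEO's platform annotation. No further normalization was done. The 64 control probe sets were removed, and a probe set was kept if its value ranked 3 from the top of 12 was above the median of all values (3.35).

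Means of the 4 groups were fitted on all 12 arrays with limma 3.58.1 in R 4.3.3, with Benjamini-Hochberg adjustment over the 24176 probe sets within each comparison and a threshold of 0.05. SE values come from the fit and SD values from the 3 arrays. The labels call the samples biological replicates, and 3 per group limit the precision. The fit was tested on simulated data. The members and lists were chosen with earlier results of these data known. All 39 genes could be named; those called between genotypes, the smallest p of each step and the isoform pairs were described in full, and other pathway genes were named if called, or as Slc25a20, Ppara, Ppargc1a, Pparg and Acaca in every case. Gpihbp1 and Plin5 were named after their values were seen.

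Same-numbered DN-MCU and WT arrays had deviations from their group means that correlated at 0.133, 0.223 and 0.283 in neonates. In adults they correlated at -0.38, 0.41 and -0.43. The fit reported treated no arrays as pairs at either age. Neonatal numbers were taken as pairs only in the neonatal replicate block, and adult numbers only in the adult block, both alternatives. Alternatives covered normalization, the filter, probe set choice, array weights, a variance trend, blocks, fits of single groups and leaving out arrays. Leaving out both DN-MCU adult 3 and WT adult 1, and fitting adults alone without DN-MCU adult 3, were chosen after seeing the data.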

Additional observations from a re-analysis of the deposited data

Results flagged for a closer look

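The effect of DN-MCU on Ehhadh differed between the ages by the test of the difference itself. The adult difference minus the neonatal difference was -1.50, with -1.10 in adults (all 3 DN-MCU arrays lower) and 0.41 in neonates (all 3 DN-MCU arrays higher). The adjusted p was 0.0477 by limma, and it ranged from 0.00340 with array weights to 0.164 with the neonatal replicate block over the alternatives.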

How the results depend on the processing

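In the adult comparison the median of the 37 genes stayed between -0.55 and -0.38 over the alternatives that left out 1 array each, and Hadha and Ehhadh passed in 12 of 12 of these, Etfdh in 4 and Eci1 in 2. The count of genes called was 4, where 4.77% of all probe sets were called, and such shares follow in brackets. It became 9 with no filter (2.54%), 14 with array weights (8.42%) and 8 with a variance trend (5.19%). With the mean of all probe sets of a gene it was 7 (5.85% of genes). For adults alone it was 0 with DN-MCU adult 3 (0.463%) and without it (0.724%). It was 20 without both DN-MCU adult 3 and WT adult 1 (13%), and 2 to 15 when 1 array was left out (2.56% to 9.16%). The count was 2 without any 1 of DN-MCU adult 1, WT adult 2, WT adult 3, DN-MCU neonate 1, DN-MCU neonate 2, WT neonate 1 or WT neonate 3. In those fits 2.56% to 3.76% of all probe sets were called. For the difference of effects the count (1) was 0 after quantile normalization, with no filter, without cross-matching probe sets and with a variance trend. It was 6 with array weights, 5 without both arrays, and 0 to 3 when 1 array was left out, where the median lay between -0.53 and -0.34. As reported, 142 of all probe sets were called higher and 48 lower for this difference. With array weights these counts were 573 and 643, and without both arrays 518 and 594. With the replicate number as a block, the neonatal block gave 1 in the adult comparison (2.63% of all probe sets) and 0 for the difference of effects. The adult block gave 5 (5.8%) and 0. A replicate block changed no other count by over 1.5 times. The median difference between the ages in DN-MCU hearts was 0.13 after quantile normalization, -0.13 with array medians subtracted and -0.0132 to 0.118 when 1 array was left out. When DN-MCU arrays were fitted alone 12 genes passed, where 3540 of 24176 probe sets were higher and 4486 lower. In WT hearts the median was 0.45 with array medians subtracted and 0.47 with the mean of all probe sets. The neonatal difference of Acsl5 turned above 0, to 0.00138 with array medians subtracted and 0.0601 with array weights, and lay between -0.0972 and 0.0312 when 1 array was left out. The causes were not tested. Signals near the filter level, 3 arrays a group and unequal spread between groups limit what can be told apart.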
